A study of Notophthalmus viridescens with 3 samples.

Results

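The miRNAs of a regenerating newt heart at 21 days post injury (dpi) were compared with those of an uninjured heart, over all miRNA probes of the array, 1365 probes with 3 replicate spots each. The animals were adult red-spotted newts (Notophthalmus viridescens). The uninjured sample is labelled as having had no stress, and whether it was sham operated is not stated. The labels refer to an earlier publication for the heart injury and name no mutation, transgene or drug. Whole hearts were used, and how many animals each sample held is not stated. These 2 samples, of 3 in the series, were each read on 1 array, so no comparison has a replicate check or a p-value, and every value describes these samples alone. The spread between animals was not measured.

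MicroRNAs are short RNAs that guide silencing proteins to messenger RNAs, and the seed near the 5′ end does most of the target recognition. MicroRNAs with the same seed form a family with largely overlapping targets. After a heart injury newts form little lasting scar and regrow muscle, in part through division of existing muscle cells, while blood cells and fibroblast-like cells enter and later leave the wound. In vertebrate hearts miR-1, miR-133 and miR-499 are the abundant miRNAs of muscle, miR-21 is raised in many injured tissues, miR-17/92 members promote cell division, and let-7 and miR-15/16 members restrain it. Since the samples are whole hearts, more cells of a type and more miRNA per cell cannot be told apart.

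The target sequences of the probes behind the main differences are given first, 5′ to 3′, with the seed (bases 2 to 8) in capitals. They come from human, zebrafish and frog miRNAs (prefixes hsa, dre, and xtr or xla), because the array held no newt probes. The first set holds miR-21, the called or most displaced members of the miR-17 seed, and miR-221 and miR-222, which share a seed.
hsa-miR-21: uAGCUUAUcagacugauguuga
dre-miR-17a: cAAAGUGCuuacagugcaggua
dre-miR-20b: cAAAGUGCucacagugcagguag
hsa-miR-106a: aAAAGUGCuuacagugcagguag
hsa-miR-222: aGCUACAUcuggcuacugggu
hsa-miR-221: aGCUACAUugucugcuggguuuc

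The second set holds the miR-1 family, whose members share every seed base and yet differed in their values, and miR-499, the muscle miRNA that moved the other way.
hsa-miR-1: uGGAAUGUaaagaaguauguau
xtr-miR-1a: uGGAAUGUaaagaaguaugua
xla-miR-1b: uGGAAUGUuaagaaguaugua
dre-miR-499: uUAAGACUugcagugauguuua

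The third set holds leukocyte miRNAs and the called pair that was not detected at 21 dpi.
hsa-miR-155: uUAAUGCUaaucgugauaggggu
hsa-miR-223: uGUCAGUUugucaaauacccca
hsa-miR-142-3p: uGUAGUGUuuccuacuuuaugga
hsa-miR-184: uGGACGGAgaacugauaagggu
hsa-miR-4267: uCCAGCUCgguggcac

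Counting from 1 at the 5′ end, the target of miR-1b differs from that of miR-1 by A9U and the target of miR-1a by no base over their shared length. The target of miR-17a differs from that of human miR-17 by no base, miR-106a by C1A and zebrafish miR-20b by U10C. Probes this alike can capture one another's targets, so a difference within such a family cannot be assigned to a single member.

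The signal of a spot is given as its intensity above the median of the 587 empty spots of its array, in intensity units. To count as detected, the median spot of a miRNA had to lie above percentile 95 of the empty spots beside it. By this measure 186 of 1242 miRNA names were detected in the uninjured heart and 147 at 21 dpi, 143 of them on both arrays. The margin above the empty-spot median was 5.81 in the uninjured heart and 31.7 at 21 dpi. Of the 43 names detected only in the uninjured heart, 35 had there a signal below the 21 dpi margin, so fewer names were detected where the minimum was higher. The tissue label fitted its markers: miR-1 ranked second on both arrays, and no marker of liver (0 of 1 name), neural tissue (0 of 3) or early embryos (0 of 17) was detected on either array.

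The overall order of the miRNAs was much alike in both hearts. Ranked by the mean signal of the spots among the 143 shared names, 61 lay within 5 places of their uninjured rank. The median move was 7 places. Spearman's rho of the signal was 0.953 over these names, which share 2 arrays and the probe set, and it is a description only. Of the 10 brightest names, 6 were the same: miR-1826, miR-1, let-7a, let-7d, let-7f and miR-23b. At 21 dpi miR-1a, miR-125a, miR-26a and miR-26 had made way for miR-23a, miR-499, miR-499-5p and miR-30c. The signal was also less concentrated, counted without names that match tRNA or rRNA fragments, such as miR-1826. The 10 brightest of the remaining names held 35.2% of the summed miRNA signal at 21 dpi against 44.2% in the uninjured heart.

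This flatter profile came with a difference between the arrays that depended on brightness. The median ratio of signal, 21 dpi over uninjured, was 1.03 among the brightest of 5 equal groups of the 143 names (29 names), then 1.30, 1.31 and 1.80, and 1.83 among the dimmest (28 names). Control probes showed the same order. The brighter 6 matched spike-in probes had a median ratio of 1.67 and the dimmer 6 one of 3.29, while 14 probes for 5S ribosomal RNA had 1.28. A share of the summed signal is free of a factor common to an array but not of one that depends on brightness, so shares are given beside ranks and beside differences after quantile normalization, which evens out the brightness steps. Normalized medians of the same 5 groups lay between -0.06 and 0.17 on the log2 scale. How much of the flatter profile lies in the hearts and how much in the arrays was not tested.

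**Figure D1:**
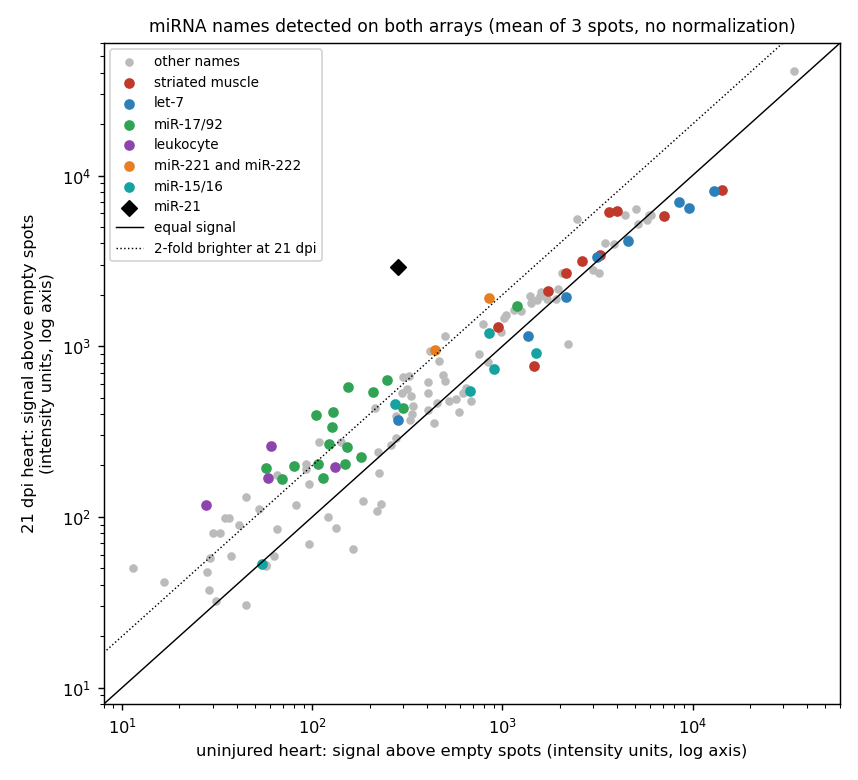
Signal above the empty spots before injury (horizontal) and at 21 dpi (vertical), both in intensity units on log axes, for the 143 names detected on both arrays, each point the mean of 3 spots before normalization. The solid line marks equal signal and the dotted line 2-fold brighter at 21 dpi. miR-21 (black diamond) lies far above the dotted line, miR-17/92 members (green) all lie above the solid line, several beyond the dotted one, and let-7 members (blue) and miR-1 lie on or below the solid line at the bright end, where most names lie close to it.

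After quantile normalization, 2 of the 190 names detected on at least 1 array were at least 2-fold higher at 21 dpi with no overlap between the spots of the arrays (1.05%), and 3 were at least 2-fold lower (1.58%). The lower names were miR-1b, miR-184 and miR-4267, and the higher ones miR-21 and miR-17a. The median of all 190 differences was -0.06 and 141 of them (74.2%) lay within 0.5 of 0. Counted at any size, 44 names had spots entirely above those of the uninjured heart (23.2%) and 64 entirely below (33.7%). The 64 include 33 of the 43 names detected only in the uninjured heart, where the detection minimum was lower. The 44 include 1 of the 4 names detected only at 21 dpi. The 33.7% is therefore not a like measure for names detected on both arrays. Among the 143 shared names 67 gained rank (46.9%) and 65 lost rank (45.5%). Each ± below is the standard error over replicate spots, which is technical spread only, and each difference is log2 of normalized signal, 21 dpi minus uninjured. Scaling to the spike-in probes in place of quantile normalization shifts the median of all 190 names to -1.36, with no normalization it is 0.19, and with 5S scaling -0.30. List values are therefore also stated relative to that shift.

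The largest difference by far was that of miR-21, a miRNA raised in injured and fibrotic mammalian hearts, where fibroblasts hold much of it. Its uninjured spots read 243, 268 and 336 above the empty spots, and its 21 dpi spots 2744, 3001 and 3000. The spots of the arrays stood far apart, at 10.3 times the mean signal, with little spread on either array. The normalized difference was 2.62 ± 0.12, and it stayed positive under all 11 alternatives tried, from 1.56 with spike-in scaling to 3.12. miR-21 moved from rank 81 to rank 23, with the ranks of its single spots at 78 to 84 and at 22 to 24. Its share of the summed signal was 0.155% ± 0.015 in the uninjured heart and 1.55% ± 0.055 at 21 dpi. A zebrafish probe of miR-21, which differs from the human one by A16G and A22G, was not detected on either array and stood at 0.56.

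**Figure D2:**
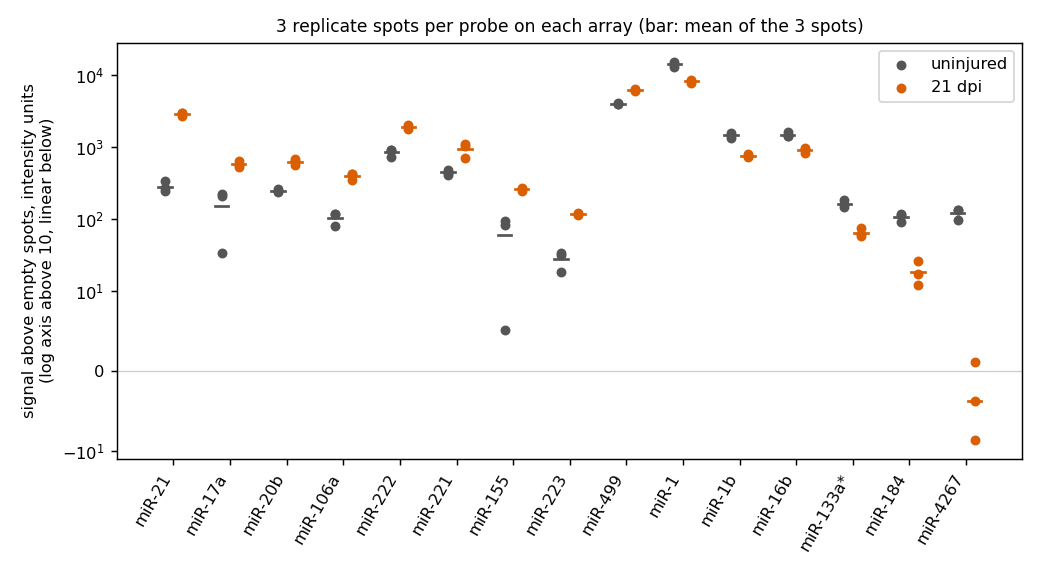
Signal above the empty spots in intensity units (log axis above 10, linear below) for 15 miRNAs, with the 3 spots of the uninjured array in grey, those of the 21 dpi array in orange, and a bar at each mean. The spots of miR-21 are about an order of magnitude apart, those of miR-17a and miR-155 include 1 dim uninjured spot each, and the 21 dpi spots of miR-4267 lie around 0.

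Members of the miR-17/92 family, known for promoting cell division, were mostly brighter at 21 dpi. Of 24 names on the array 17 were detected, all on both arrays. Spots lay entirely above those of the uninjured heart for 11 of the 17 and entirely below for 1, miR-19c at -0.22 ± 0.07, against 23.2% and 33.7% of all names. Those percentages also cover names detected on 1 array only. The median difference of the 17 was 0.36, beside -0.06 over all names, and relative to the shift of all names it was positive under every scaling tried. Unadjusted for that shift the median was -0.68 with spike-in scaling. In ranks 12 of the 17 gained and 4 lost, with a median gain of 10 places. The summed share was 1.92% ± 0.049 in the uninjured heart and 3.68% ± 0.12 at 21 dpi, a ratio of 1.92. On the log2 scale that ratio was 0.94, but 0.49 with normalized signal. Several of the names, such as miR-106a and miR-17-5p, are dim. Their uninjured signal was near the median of the fourth of the 5 brightness groups, 128, where the median signal ratio was 1.80.

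Within the family the share ratio was highest for the miR-17 seed, AAAGUGC. Its 8 detected names held 0.598% ± 0.036 of the signal in the uninjured heart and 1.54% ± 0.087 at 21 dpi, a ratio of 2.57. Its median difference was 0.55, with a median gain of 15.5 places. The miR-92 seed (AUUGCAC, 5 names) had a share ratio of 1.85, but its median difference was -0.01 and its median move 0 places. The miR-19 seed (GUGCAAA, 2 names) had a ratio of 1.37, with a median difference of -0.03 and a median move of -1 place. The difference between these ratios has no test, and 7 of the 8 miR-17 seed probes are near-identical, so they are not independent readings.

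Among the miR-17 seed members, miR-20b and miR-106a had equal differences. The spots of miR-20b read 234, 243 and 263 in the uninjured heart and 686, 640 and 565 at 21 dpi. The difference was 0.81 ± 0.08 and the rank went from 87 to 62, while a human probe of miR-20b stood at 0.40. miR-106a read 79.8, 118 and 117, then 418, 417 and 346, a difference of 0.81 ± 0.14 with a move from rank 110 to 86. All spots of these 2 names were brighter at 21 dpi. The called member miR-17a read 33.4, 206 and 220 in the uninjured heart, so 1 spot was dim, and 638, 560 and 522 at 21 dpi. Its difference was 1.12 ± 0.51, and with the median of the spots in place of the mean it was 0.74, below 2-fold. miR-17-5p stood at 0.70 ± 0.10 and miR-106 at 0.32 ± 0.08, whereas miR-17, whose 21 dpi spots read 383, 202 and 28.9, stood at -0.03 ± 0.65. Of the 8 names of this seed 6 were positive, and the lowest stood at -0.36 with overlapping spots.

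Among the other members of the list, miR-92a read 170, 210 and 246 in the uninjured heart and 500, 617 and 498 at 21 dpi. It stood at 0.70 ± 0.15 and moved from rank 93 to 69. A frog probe of miR-92a stood at 0.35. miR-93a and miR-93b stood at 0.50 ± 0.08 and 0.36 ± 0.08. The brightest member, miR-19d, was nearly level, at 0.15 ± 0.04 and ranks 42 and 39, and miR-25 stood at -0.02 ± 0.13. The gain thus did not cover all members.

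The clustered pair miR-221 and miR-222, which share the seed GCUACAU and are known to restrain cell cycle inhibitors and to act in vessel walls, was brighter too. miR-222 read 718, 925 and 922 in the uninjured heart and 1913, 2008 and 1793 at 21 dpi. miR-221 read 415, 443 and 474, then 709, 1112 and 1034. No spots overlapped for either name. The differences were 0.78 ± 0.12 for miR-222 and 0.78 ± 0.19 for miR-221, and each gained 15 places, to ranks 34 and 51. A frog probe of miR-222 stood at 0.80. Together they held 0.713% ± 0.039 of the signal in the uninjured heart and 1.52% ± 0.079 at 21 dpi. Their median, 0.78, was -0.51 with spike-in scaling, where that of all names was -1.36.

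**Figure D3:**
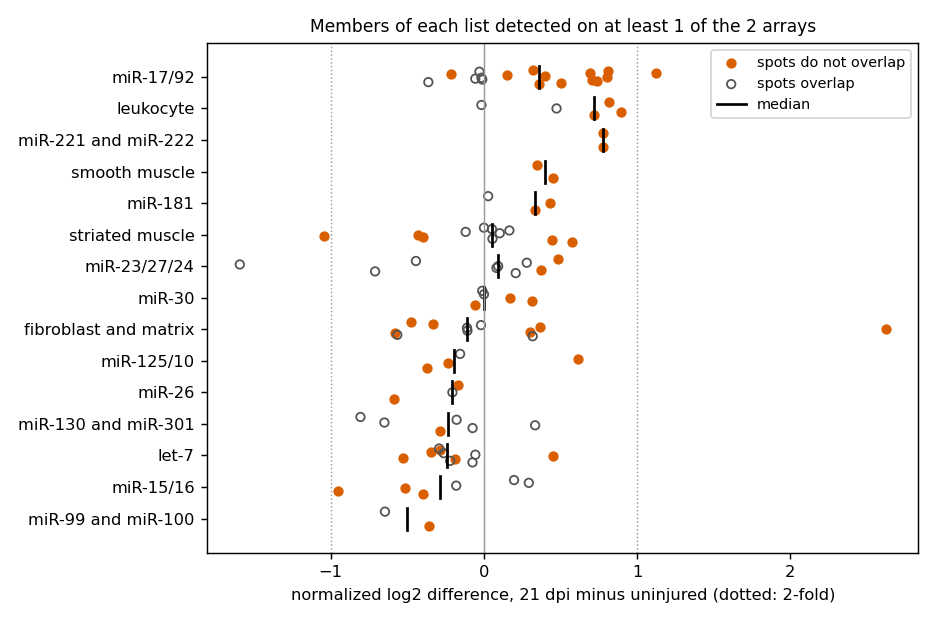
Normalized log2 difference, 21 dpi minus uninjured, of each member detected on at least 1 array, for 15 lists (rows), with filled points where the spots of the arrays did not overlap, open points where they did, and a black bar at the list's median. The miR-17/92, leukocyte, miR-221 and miR-222, smooth muscle and miR-181 medians lie to the right of 0 and those of let-7, miR-15/16 and miR-99 with miR-100 to the left. Spike-in scaling moves all list medians below 0, and the median of all names with them.

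Leukocyte miRNAs were mostly brighter at 21 dpi than in the uninjured heart. Of 12 names on the array 5 were detected on at least 1 array, 3 had spots entirely above those of the uninjured heart and none entirely below, beside 23.2% and 33.7% of all names, and the median was 0.72. Of these 3, miR-142-3p passed the detection filter through the 21 dpi array alone, so it could hardly enter as lower. The list's share was 0.152% ± 0.016 in the uninjured heart and 0.427% ± 0.024 at 21 dpi, a ratio of 2.80. Its names are dim, in the range where signal ratios between these arrays were highest for all names. The median ratio was 1.80 and 1.83 in the dimmest groups of the shared names. None of these names reached 2-fold after normalization. With spike-in scaling the median was -0.50, and relative to all names it was positive under every scaling tried.

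miR-155, a miRNA of activated lymphocytes and macrophages, read 82.7, 5.05 and 94.2 in the uninjured heart and 248, 270 and 262 at 21 dpi. The difference of 0.89 ± 0.39 includes that dim spot, and a frog probe stood at 0.36. miR-223, a miRNA of the myeloid lineage, read 18.4, 31.3 and 33.2, then 120, 114 and 116, at 0.72 ± 0.08. It moved from rank 140 to 118, but a dimmer frog probe was not detected on either array. miR-142-3p, found across blood cell lineages, read -3.75, -1.76 and 0.04 in the uninjured heart and 52.6, 59.6 and 75.1 at 21 dpi. It was detected at 21 dpi alone, at 1.54-fold the lowest normalized level of any name detected in the uninjured heart. The remaining members differed less, with miR-150 at 0.47 ± 0.28 and miR-146b, a miRNA induced by inflammation, at -0.02 ± 0.05.

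Smooth muscle miRNAs were brighter as well, from a low level. miR-145 read 98.4, 117 and 111 in the uninjured heart and 313, 271 and 242 at 21 dpi, a difference of 0.45 ± 0.10. Its zebrafish and frog probes stood at 0.20 and -0.05. miR-143, which is made from the same transcript, read 25.7, 30.7 and 34.2, then 101, 71.0 and 70.6, at 0.35 ± 0.10. The pair's share was 0.0764% ± 0.0034 before injury and 0.190% ± 0.013 at 21 dpi, and it gained 15 and 9 places in rank. Both names are dim, in the range where signal ratios between these arrays were highest for all names.

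Markers of other cell types were level or split. Of 3 erythroid names detected on at least 1 array, the brightest, miR-451, held rank 18 on both arrays, with a difference of 0.00 ± 0.04 and spots of 3447, 3580 and 3404 against 3884, 4234 and 4024. The other erythroid names were dim and opposed each other: miR-144 stood at 0.23 ± 0.09 and miR-486-3p, not detected at 21 dpi, at -0.32 ± 0.11, both with separate spots. The endothelial miRNA miR-126 stood at -0.25 ± 0.08, at ranks 22 and 24. Epithelial names had a median of -0.10 over 4 detected names, all near the detection minimum.

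**Figure D4:**
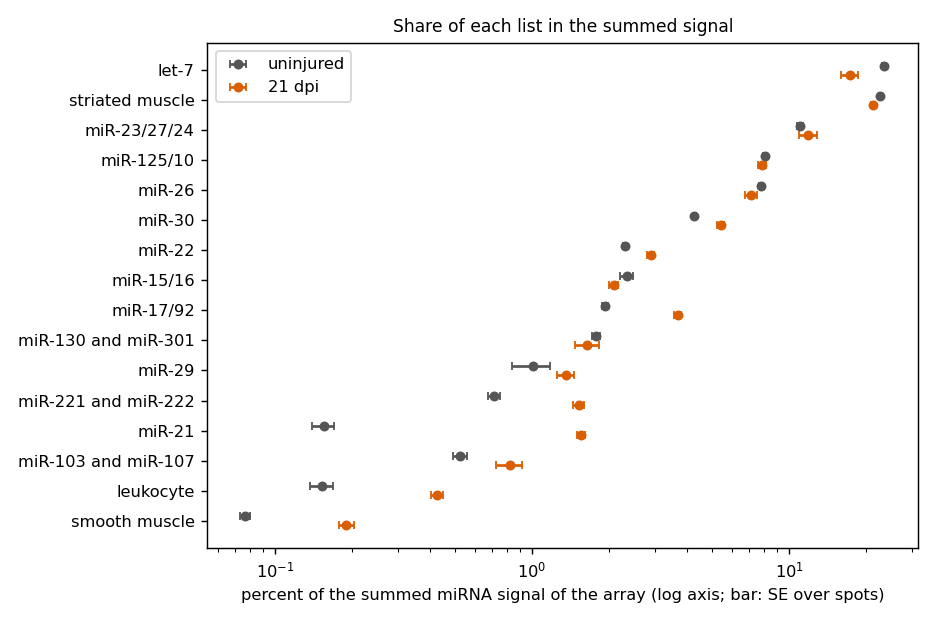
Share of each list in the summed signal of its array, in percent on a log axis, for the uninjured heart (grey) and 21 dpi (orange), with bars for the standard error over spots. The largest step is that of miR-21, from 0.155% to 1.55%, and the smooth muscle, leukocyte, miR-221 and miR-222, and miR-17/92 shares also lie clearly to the right at 21 dpi, while let-7 lies to the left, at 17.3% against 23.4%. The smooth muscle and leukocyte names and several miR-17/92 names are dim, where signal ratios between the arrays were highest for all names.

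Striated muscle miRNAs held a nearly equal share of the signal in both hearts, 22.6% ± 0.36 and 21.2% ± 0.46, but the families within it differed. Of 14 names 11 were detected, with a median of 0.05. Spots lay entirely above those of the uninjured heart for 2 and entirely below for 3, beside 23.2% and 33.7% of all names. The 3 include miR-206, detected in the uninjured heart only. The sign of the small difference in share depends on the processing: the log2 ratio was -0.09, but 0.10 with the 10 brightest names left out of the total and 0.071 with normalized signal.

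The miR-1 seed family (GGAAUGU) held 12.6% ± 0.34 of the signal in the uninjured heart and 7.91% ± 0.21 at 21 dpi, a ratio of 0.63. miR-1 itself read 13209, 14382 and 15480, then 8635, 7805 and 8330. All of its 21 dpi spots were dimmer, at 0.575 times the mean signal, yet it stayed at rank 2, so its difference after normalization was 0.00 ± 0.08. Quantile normalization gives each rank 1 value, so a name that keeps its rank stands near 0. miR-1a read 7098, 6853 and 7288, then 5616, 6138 and 5729, and went from rank 6 to 12, at -0.43 ± 0.05. miR-1b read 1332, 1452 and 1591, then 759, 812 and 719, and went from rank 37 to 57, at -1.04 ± 0.08. Thus the probe with the A9U change had the largest normalized difference of the 3, and all alternatives kept it negative, from -2.42 to -0.86. Without normalization but with background correction miR-1b stood at -0.86, and the log2 ratio of mean signals above the empty spots was -0.80 for miR-1. These measures are unlike, so they give the gap between the names only roughly. Whether the changed base plays a part was not tested. miR-206, the skeletal muscle member of the family, was near the empty spots throughout, at 7.24, 12.4 and 15.4 in the uninjured heart and below them at 21 dpi.

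miR-499, which lies in an intron of a slow myosin heavy chain gene in mammals, took the opposite course to miR-1. Its zebrafish probe read 4062, 4005 and 4008 in the uninjured heart and 6351, 6302 and 5973 at 21 dpi, and moved from rank 15 to 7, at 0.44 ± 0.03. The human probe, miR-499-5p, moved from rank 17 to 8, at 0.58 ± 0.07, and a frog probe stood at 0.55. The share of this seed (UAAGACU) was 4.20% ± 0.091 in the uninjured heart and 6.55% ± 0.17 at 21 dpi. The related miR-208b, also hosted by a myosin gene in mammals, stood at 0.06 ± 0.16 and ranks 47 and 45. Its spots overlapped after normalization.

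miR-133, the partner of miR-1 on the same transcripts in mammals, was level. The differences were 0.05 ± 0.11 for miR-133a, 0.17 ± 0.11 for miR-133b, -0.12 ± 0.09 for miR-133c and 0.10 ± 0.09 for miR-133d, with overlapping spots and moves of at most 2 places. The passenger strand miR-133a* parted from them. It read 161, 145 and 184 in the uninjured heart and 74.8, 61.1 and 57.8 at 21 dpi, so all 21 dpi spots were dimmer. Its difference was -0.99 ± 0.09, just short of 2-fold, and its loss of 34 places, to rank 130, was the largest of the 143 names. Of 8 detected star names, 6 had spots entirely below the uninjured ones and none above, beside 33.7% and 23.2% of all names, with a median of -0.25. The 6 include miR-126b*, detected in the uninjured heart only. miR-24-1* was the exception in sign, at 0.19 ± 0.13. miR-140* has the strand and nearly the sequence of miR-140-3p. Likewise miR-126b* and miR-199a* have probes near-identical to those of miR-126b and miR-199a-3p, names without a star. The count of star names is therefore not one of passenger strands alone.

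**Figure D5:**
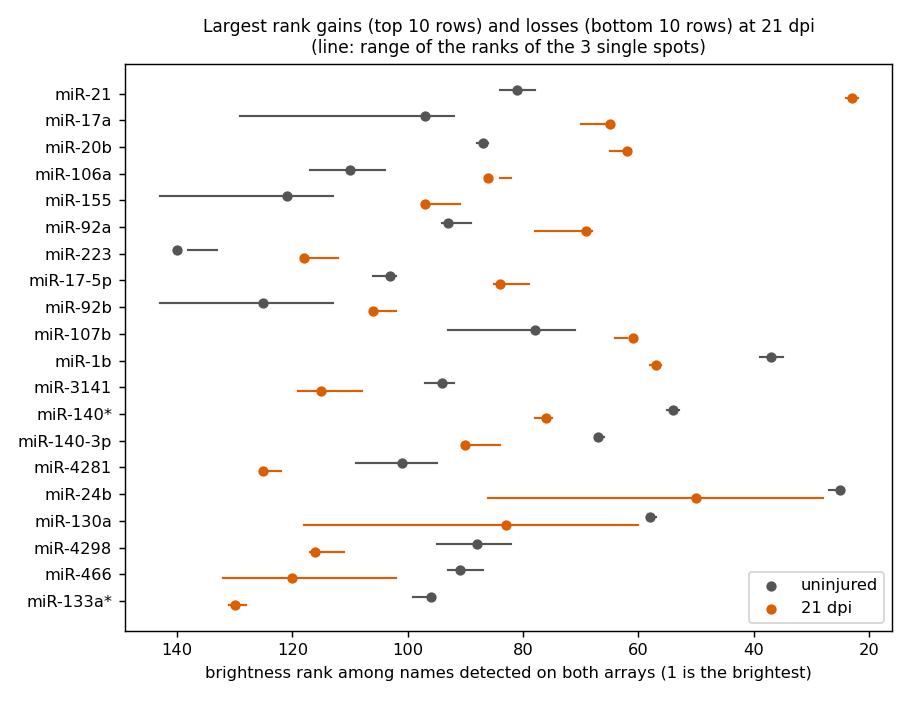
Brightness rank among the 143 shared names (1 is the brightest) in the uninjured heart (grey) and at 21 dpi (orange), for the 10 largest gains (top) and the 10 largest losses (bottom). Points are ranks of the mean signal and lines the range of the ranks of the 3 single spots, each ranked among the same spot of the other names, so a range can miss the point. The lines of miR-21 are narrow and 58 places separate its points, while those of miR-24b, miR-130a and miR-466 are wide at 21 dpi.

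The let-7 family, whose members restrain growth genes, held a smaller share at 21 dpi, 17.3% ± 1.32 against 23.4% ± 0.43. Of 11 names 10 were detected, 8 of them on both arrays, and the median was -0.24. Spots lay entirely above the uninjured ones for 1 and entirely below for 4, beside 23.2% and 33.7% of all names. The 4 include let-7h, detected in the uninjured heart only. Of the 64 names behind the 33.7%, 33 were also detected in the uninjured heart only, so it is no like measure for names on both arrays. Relative to all names the median stayed negative except with the median of the spots, where it was 0.01. The brightest member, let-7a, read 12058, 12728 and 14190 in the uninjured heart and 10965, 10790 and 2652 at 21 dpi, the last a dim spot. The log2 ratio of the family's shares was -0.44, but -0.31 with the median of the spots and -0.079 with normalized signal.

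Single let-7 members differed in direction. let-7c read 4184, 4450 and 5055, then 4248, 4346 and 3745, and stood at -0.34 ± 0.10. let-7g stood at -0.53 ± 0.16 and went from rank 40 to 48. In contrast let-7f stood at 0.45 ± 0.09, although its spots were dimmer at 21 dpi, at 7205, 7128 and 6578 against 7649, 8609 and 9339. Its rank by mean signal moved only from 5 to 4. On the log2 scale the dim spot of let-7a placed let-7f above it at 21 dpi, and quantile normalization takes its values from such places.

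The miR-15/16 family (AGCAGCA), known to hold back the cell cycle in mammalian heart muscle, was split between its miR-16 and miR-15 names. Of 11 names 6 were detected, none with spots entirely above and 3, all miR-16 names, entirely below those of the uninjured heart, beside 33.7% of all names below. All 6 were detected on both arrays, whereas the 33.7% also covers names detected on 1 array only. The median was -0.29. The share was 2.33% ± 0.13 and 2.08% ± 0.079. miR-16b read 1411, 1439 and 1639 in the uninjured heart and 977, 935 and 841 at 21 dpi, at -0.95 ± 0.09, and moved from rank 36 to 53. A frog probe of miR-16b stood at -0.34. miR-16a stood at -0.52 ± 0.06 and miR-16c at -0.40 ± 0.18, while miR-15b and miR-15c stood at 0.20 ± 0.15 and 0.29 ± 0.44 with overlapping spots. The lower members are near-identical probes, so they do not count as separate readings.

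Matrix-related miRNAs other than miR-21 were split in direction, and none came near its gain. The fibroblast and matrix list, with miR-21 counted in it, had a median of -0.11 over 11 detected names. Spots lay entirely above for 3, of which miR-21 is 1, and entirely below for 3, beside 23.2% and 33.7% of all names. The lower 3 include miR-140-5p, detected in the uninjured heart only. Its share was 2.92% ± 0.17 and 4.85% ± 0.15, a step to which miR-21 alone contributed from 0.155% to 1.55%. miR-29 members, known to lower collagen messages, had a median of -0.13, and their share was 1.01% ± 0.17 and 1.35% ± 0.11. Among them miR-29a stood at 0.30 ± 0.06 and miR-29b was detected in the uninjured heart only, with spots of 65.8, 62.4 and 75.1 there against 26.6, 37.8 and 28.1. miR-199a-5p stood at 0.37 ± 0.10 and miR-199a-3p at -0.02 ± 0.05, while miR-214 stood at -0.11 ± 0.06. miR-140*, a name of the same strand as miR-140-3p, stood at -0.65 ± 0.12 and miR-140-3p at -0.48 ± 0.07, with moves from rank 54 to 76 and from 67 to 90.

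Of the remaining large families, miR-23/27/24 held 11.03% ± 0.32 and 11.9% ± 0.96, and 6 of its 9 names were positive. miR-23a stood at 0.48 ± 0.07 and ranks 11 and 6, but its zebrafish probe stood at 0.00. The near-identical miR-23b stood at -0.44 and its zebrafish probe at -0.24. The dissent of miR-24b, at -1.59 ± 0.76, rests on its 21 dpi spots of 399, 432 and 2278. miR-125/10 held 8.06% ± 0.15 and 7.85% ± 0.31, and miR-26 7.78% ± 0.13 and 7.13% ± 0.39. miR-30 and miR-22 held larger shares at 21 dpi, beyond the spread of spots. Their summed signals, however, were each 1.30 times the uninjured ones, near the median ratio of 1.31 over the 143 shared names. miR-30 held 4.28% ± 0.060 and 5.41% ± 0.15, with a median difference of 0.00, and miR-22 held 2.29% ± 0.041 and 2.90% ± 0.088, with a median of 0.07. miR-181 had a median of 0.33 over 3 names, 2 of them with spots entirely above, beside 23.2% of all names. These 2, miR-181b and miR-181c, have near-identical probes. The brightest member, miR-181a, stood at 0.03 ± 0.15 with overlapping spots. The hypoxia-induced miR-210 was level at -0.03 ± 0.08, and miR-128 stood at -0.34 ± 0.05, its spots of 249, 251 and 282 facing 260, 273 and 257. No member of miR-34 and miR-449 (9 names) or miR-320 (6 names) was detected on either array.

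The pair detected in the uninjured heart alone and called lower was miR-184 and miR-4267. miR-184, known from eye and nerve tissue, read 89.5, 118 and 113 in the uninjured heart and 17.2, 25.7 and 12.03 at 21 dpi, below the detection margin. Its uninjured level was 2.17-fold the lowest normalized level of any name detected at 21 dpi. Its zebrafish and frog probes stood at -1.19 and -1.05, so all 3 probes gave the same direction. miR-4267, a short GC-rich human sequence (68.8% GC), read 135, 97.6 and 134, then 1.06, -3.77 and -8.64. The uninjured level of miR-4267 was 2.28-fold that same lowest level. No other species' probe of that number was on the array. Of the 43 names detected only in the uninjured heart 29 had only human probes, against 60 of all 190. Detected at 21 dpi alone were miR-142-3p, miR-3167, miR-502-3p and miR-3180-5p, the last 3 with 1 of 3 spots below the empty-spot median.

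Names that match fragments of tRNA or rRNA were kept out of the shares. The brightest name of all, miR-1826, read 31870, 35275 and 35507 in the uninjured heart and 38774, 42976 and 41353 at 21 dpi, and kept rank 1. miR-1280 read 2394, 2461 and 2571, then 4746, 6034 and 5896, at 0.95 ± 0.11, and moved from rank 24 to 13. miR-720 stood at 0.79 ± 0.08. The other members differed, with 3 of the 6 detected names positive in all. miR-1973 read 174, 222 and 273, then 131, 203 and 208, at -0.53 ± 0.21, and moved from rank 89 to 108. miR-1260b stood at -0.05 ± 0.40 and miR-1260 at 0.46 ± 0.39 with overlapping spots. Whether any of these probes reads a miRNA was not tested.

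The values at 7 dpi against the same uninjured array are set beside those at 21 dpi, and the pair of comparisons shares that array. The 7 dpi array was dimmer, with a summed miRNA signal of 64495, beside 182280 in the uninjured heart and 187718 at 21 dpi. A share is not free of an array difference that depends on brightness, and none was tested for 7 dpi. miR-21 stood at 1.76 ± 0.13 at 7 dpi and 2.62 ± 0.12 at 21 dpi, and its share was 0.772% at 7 dpi against 1.55%. The miR-17/92 share went from 1.92% to 2.72% at 7 dpi and 3.68% at 21 dpi, and that of miR-221 and miR-222 was 0.713%, 1.16% and 1.52%. The leukocyte share was 0.573% at 7 dpi and 0.427% at 21 dpi, while the summed signal of the list was 370 and 802. The members of the list differed. At 7 and 21 dpi miR-155 stood at 1.51 and 0.89, miR-223 at 1.48 and 0.72, and miR-150 at 0.75 and 0.47. In contrast miR-142-3p stood at -0.06 (not detected) and 0.82, and miR-146b at -0.29 and -0.02. miR-1b stood at -2.22 at 7 dpi and -1.04 at 21 dpi. miR-133a* stood at -0.92 and -0.99, miR-16b at -1.11 and -0.95, and miR-184 at -1.28 and -1.13. miR-466 stood at 3.33 and -0.94, its 7 dpi spots at 1211, 1032 and 1151. Calls at 7 dpi numbered 18 higher (8.49% of 212 names) and 4 lower (1.89%). No difference between the times was tested.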

How the data were processed

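MicroRNA arrays of 3 whole-heart samples (uninjured, 7 dpi, 21 dpi) were used. Per the labels, 2.6, 5.1 and 3.3 µg of total RNA were sent to a service provider and 0.5 µg entered each assay, 3′-tailed and stained with Cy3. Per the file headers, the deposited intensity of a spot is its median brightness, which is linear and has no local background beside it. A processed intensity for each probe, also deposited by the authors, served as an alternative, and its method is not given in the labels used here. The series text speaks of paired samples, whereas each file holds a single channel, so the arrays were taken as 1-colour.

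Spots were background corrected with normexp (offset 50, foreground only) in limma 3.58.1 under R 4.3.3, put on the log2 scale, averaged over 3 spots and quantile normalized over 1365 probes of all 3 arrays. The offset compresses differences of dim probes. Where several species had a probe of the same name, the brightest was kept. A call needed a difference of at least 1 on the log2 scale, detection on at least 1 of the compared arrays and no overlap of spots. For a name detected on 1 array only, its level was set against the lowest normalized value of any name detected on the other array. Where its own value there was higher, that value was used. The lowest value can lie below the detection minimum, since detection used the median spot, so the fold is no strict bound. Shares are percentages of the summed signal above the empty-spot median over 184 names. The number of arrays limits the precision. No newt genome was used.

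The miRNAs and lists were chosen with earlier results of these data known. Named were the 10 largest differences and rank moves each way, up to 5 names detected on 1 array only, the 10 brightest at 21 dpi, up to 6 bright members per list, and other species' probes of these names. Not every name so chosen is printed.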

Additional observations from a re-analysis of the deposited data

How the results depend on the processing

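The number of names at least 2-fold higher (2) and lower (3) hangs on the scaling. It was 17 and 1 with no normalization, 4 and 5 with cyclic loess, 3 and 13 with 5S rRNA probes, 1 and 136 with spike-in probes, 4 and 11 with the median and 5 and 9 with percentile 75 of the names detected on all 3 arrays, and 4 and 6 with only the compared arrays. Background settings gave 7 and 10 with the empty-spot median subtracted (floor 32) and 6 and 6 with an offset of 16. The median of 3 spots gave 1 and 6, a 1.5-fold threshold 16 and 14, every probe counted 2 and 5, and the authors' processed intensity 6 and 12. miR-21, miR-17a, miR-1b, miR-184 and miR-4267 kept their direction under all 11 alternatives. Log2 ratios of shares (21 dpi over uninjured) moved as follows. Striated muscle, -0.09, was -0.25 with near-identical probes linked, 0.10 without the 10 brightest names and 0.071 with quantile-normalized signal, a setting chosen after seeing the data. miR-17/92, 0.94, was 0.79, 0.71 and 0.49 in the same order and 0.62 with the authors' values. Leukocyte, 1.49, was 1.02 with the authors' values and 1.05 with normalized signal, miR-21, 3.33, was 3.00 and 2.97, and let-7, -0.44, was -0.079 with normalized signal. The causes were not tested. No paired analysis was possible because each group has 1 sample. Depth is limited by the 21 dpi array's higher empty-spot spread.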

Other observations

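The miR-193 seed (ACUGGCC), which is in none of the lists, held 0.497% of the summed signal in the uninjured heart and 0.955% at 21 dpi. miR-193b read 508, 348 and 531, then 867, 798 and 776, at 0.55 ± 0.17, and moved from rank 64 to 55. miR-193 read 612, 552 and 83.9, then 940, 1028 and 826, so its 0.89 ± 0.72 includes 1 dim uninjured spot. The zebrafish probe miR-107b, of the miR-103 and miR-107 pair known from lipid and insulin metabolism, stood at 0.61 ± 0.22, while the human miR-103 probe, whose 21 dpi spots read 595, 32.01 and 479, stood at -0.57 ± 0.86. miR-125a-5p stood at 0.62 ± 0.09 and moved from rank 76 to 60, while the brighter frog miR-125a stood at -0.16 ± 0.12.

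Spots under 50% of their probe's median spot occurred in 10 names in the uninjured heart and 15 at 21 dpi. Among names with only human probes, 30 of 60 had spots entirely below the uninjured ones and 7 entirely above, against 34 and 37 of the 130 names with a frog or zebrafish probe. Of these 60 names, 29 were detected only in the uninjured heart, on the array with the lower detection minimum. The 2 groups are thus not alike in how their names entered, and no property of human probes was tested.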
